A study of Homo sapiens with 4 samples.

Results

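The cytosolic ribosomal protein genes encode the protein parts of the cytoplasmic ribosome. They were taken from the RNA-seq table by symbol, as RPL or RPS followed by a number and at most 1 letter A, X or L, together with *RPLP0*, *RPLP1*, *RPLP2* and *RPSA*. This gave 83 of the 57820 genes in the table, 49 of the large (60S) subunit and 34 of the small (40S) subunit. The rule used no measured value. It leaves out *FAU*, whose product is a ribosomal protein fused to a ubiquitin-like protein, and which was followed beside it. The RNA came from SK-N-SH, an established human neuroblastoma line, in 4 libraries. In 2 of them (OE) the cells carried a lentivirus from which the EF1a promoter drives the lncRNA *RP5-998N21.4*, and in the other 2 (vector control) an empty lentivirus vector. The control libraries are labelled wild type as genotype and WT in their titles, and the treatment label was followed. All cells were therefore transduced, and the control is not an untreated cell. Nothing in the labels says that the replicates were separate cultures, so p-values measure the spread between these libraries, which may be technical. The libraries summed to 23785164 and 24098041 counts for the vector control and to 24601728 and 28307591 for OE.

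A ribosome joins a small subunit, which reads the mRNA, to a large subunit, which forms the peptide bond, and most ribosomal proteins are present in a single copy per subunit. Most mRNAs of these proteins start with a C followed by a run of pyrimidines, the 5′ terminal oligopyrimidine (TOP) motif, through which mTORC1 and *LARP1* control their translation together. Their short, abundant mRNAs have also been copied back into the human genome many times as processed pseudogenes, copies without introns that can be nearly identical to the mRNA. A read of the mRNA that crosses an exon junction can lie without a gap in such a copy, whereas in the gene itself it is split by the intron.

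Exon junctions of some ribosomal protein mRNAs were found letter for letter in their pseudogenes. For 12 abundant pseudogenes, the 30 bases around each coding junction of the annotated parent transcript were searched in the pseudogene, and 44 of 65 junctions were present without a mismatch, at least 1 in each of the 12. Examples are shown for *RPS18*, *RPL13A*, *RPS2* and *RPL4*, since counts of these genes and of their copies are compared here. The first line of each pair is the spliced transcript, identical over these bases to the pseudogene, and the second is the gene itself, which runs into the intron. Capitals mark the 15 bases after the end of the exon. All are in hg19 (GRCh37). The *RPS18* lines are the junction of exons 5 and 6, with the gene at chr6:33244030-33244059 (plus strand) and the copy *RP11-234A1.1*, now named *RPS18P5*, at chr3:101295394-101295423 (minus strand). The *RPL13A* lines are exons 4 and 5, at chr19:49993819-49993848 (plus strand) and in *RPL13AP5* at chr10:98510286-98510315 (plus strand). The *RPS2* lines are exons 5 and 6, at chr16:2012722-2012751 (minus strand) and in *RPS2P5* at chr12:118684423-118684452 (plus strand). The *RPL4* lines are exons 6 and 7, at chr15:66793698-66793727 (minus strand) and in *RPL4P4* at chr3:185135876-185135905 (minus strand).
RPS18 transcript and RP11-234A1.1: gcgtcacttctggggCCTTCGTGTCCGAGG
RPS18 gene: gcgtcacttctggggGTGAGTGGGGGGTCT
RPL13A transcript and RPL13AP5: ggcggaccgtgcgagGTATGCTGCCCCACA
RPL13A gene: ggcggaccgtgcgagGTGAGCAGAGCGTGG
RPS2 transcript and RPS2P5: actgtcccttgcaagGTGACAGGCCGCTGC
RPS2 gene: actgtcccttgcaagGTAGGCTGGTGGCAG
RPL4 transcript and RPL4P4: tcagaaacatccctgGAATTACTCTGCTTA
RPL4 gene: tcagaaacatccctgGTAATTAAACTGCTT

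The ribosomal protein genes themselves held few of the counts. They took 0.213% (95% Wilson interval 0.2107% to 0.2144%) and 0.276% (0.2744% to 0.2786%) of all counts in the control libraries and 0.267% (0.2655% to 0.2695%) and 0.238% (0.2360% to 0.2396%) in the OE libraries. The conditions overlapped. Without *RPL29*, which was high in vector control 2, OE 2 lay only narrowly above that library (0.237% against 0.235%). Without molecular identifiers the intervals describe the error of counting alone. The table also lists 1593 genes named as pseudogenes of 77 of the 83 members, 807 by the symbol in the file and the others by the current symbol of the same gene identifier, and 656 of them had counts. These held 2.69% and 2.81% of all counts in the control libraries and 2.93% and 2.82% in OE. The genes thus held only 7.33%, 8.95%, 8.38% and 7.77% of the counts of their families in vector control 1 and 2 and OE 1 and 2. Pseudogene counts exceeded those of the parent gene in 55 of the 83 families. Over the 74 families with counted pseudogenes, the parent held a median of 6.5% of the counts, under 10% in 40 families and over 50% in 19. How many of the reads counted in pseudogenes came from the mRNAs of the parent genes was not tested.

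**Figure D1:**
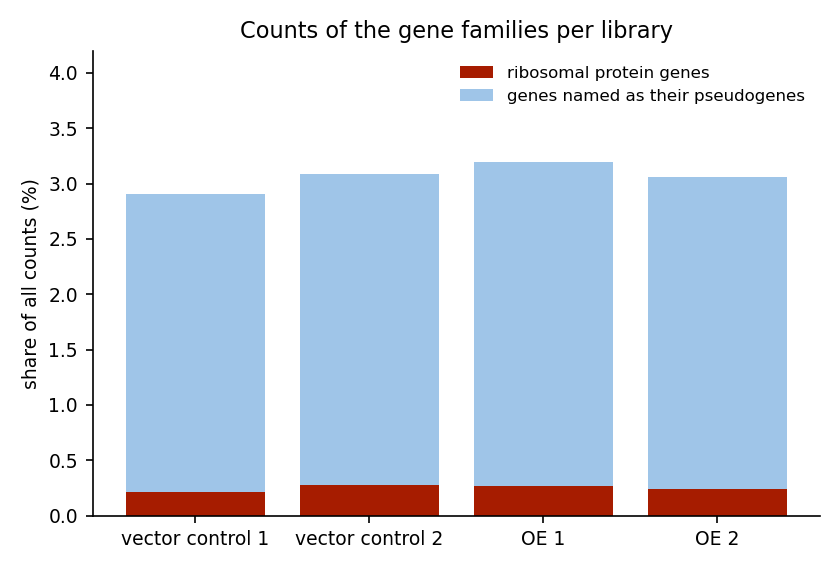
Share of all counts (%, y axis) in each of the 4 libraries held by the 83 ribosomal protein genes (dark) and by the 1593 genes named as their pseudogenes (light, stacked on top). The genes hold 0.213% to 0.276%, with the conditions overlapping when *RPL29* is included, and the pseudogenes 2.69% and 2.81% in the vector control and 2.93% and 2.82% in OE.

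*RPS18*, a protein of the small subunit head, had counts on genes named as its pseudogenes and none on the gene itself. It had 0 counts in all 4 libraries, below the limit of 3 counts (0.106 to 0.126 in CPM, counts scaled to the library size), while those pseudogenes had 19371 and 20984 counts in the control libraries and 21963 and 23037 in OE. Nearly all of these were on *RP11-234A1.1*, with 18993 and 20657 counts in the control libraries and 21380 and 22540 in OE. *RPLP0*, which anchors the stalk of the large subunit, had 635 and 950 counts in the control libraries and 985 and 920 in OE, against 35353, 36605, 36760 and 42865 on *RPLP0P6* alone. *RPL13A* had 4831 and 5594 counts in the control libraries and 5579 and 5919 in OE, 13.4% of its family. *RPL7* was at 0.781% of its family, whereas *RPL27A*, *RPL39L*, *RPL3L*, *RPLP2* and *RPS27L* had no counted pseudogene.

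Of the 83 genes, 78 passed edgeR's filter on low counts and were tested. Among the other 5, *RPS18* and the testis-type paralog *RPL10L* were at 0 counts in every library. *RPS10L*, taken in by its symbol, had 4 and 7 counts in the control libraries and 0 and 5 in OE. These were on a transcript annotated as a processed pseudogene. Per kilobase of the annotated canonical transcript, the 78 genes ranged from 0.277 to 233 CPM with a median of 14.4 CPM. The highest were *RPL15* at 233, *RPL41* at 217 and *RPL13A* at 194 CPM per kilobase, and the lowest *RPL3L* at 0.277, *RPL38* at 1.51 and *RPS27L* at 2.45. The transcript lengths come from a later annotation than the table and are long for some genes, such as 7573 bases for *RPL37*, which lowers their level per kilobase. With pseudogene counts added, the levels of the families ranged from 0.277 to 2177 CPM per kilobase, with a median of 186. The spread widened, from an SD of 1.53 to 2.77 on the log2 scale, so adding the pseudogenes did not bring the genes to one level.

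In OE against vector control, the ribosomal protein genes were mostly slightly higher, with 0 past the study's threshold in edgeR. The median log2 fold change was 0.25 (quartiles 0.08 and 0.50), with 61 of 78 above 0, beside 0.01 (quartiles -0.28 and 0.32) over all 20528 tested genes. This median was 0.13 without OE 1, 0.16 without vector control 1, and 0.09 with the pseudogene counts added. With edgeR's quasi-likelihood test and the thresholds of the study (adjusted p under 0.01, log2 fold change beyond 0.5 either way), 0 of the 78 were called, as were 0% of all genes. At an unadjusted p under 0.05, 12 (15.4%) were higher in OE and 2 lower, beside 10.1% and 10.7% of all tested genes. Both OE libraries were above both controls for 37 genes (47.4%), beside 27.8% of all genes, and below both for 4, beside 27.6%. The study applied these thresholds with DESeq2. Run here, DESeq2 called 7 higher (*RPL12*, *RPL32*, *RPL37*, *RPS14*, *RPS2*, *RPS3A* and *RPS4X*) and 1 lower (*RPL37A*), beside 4.35% and 4.42% of all genes. The limma-voom fit called 0. With 2 libraries against 2, an exact permutation test of a single value cannot go below 0.333. In bulk RNA, fewer cells that express a gene and less of its RNA per cell cannot be told apart.

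The subunits were described apart, and the difference between them was not tested. Of 30 tested 40S genes, 7 (23.3%) were higher at an unadjusted p under 0.05 and 0 lower, the median log2 fold change was 0.37, and both OE libraries were above both controls for 19 (63.3%) and below for 0. Of 48 tested 60S genes, 5 (10.4%) were higher and 2 lower, the median was 0.24, and 18 (37.5%) were above and 4 below both controls. Of all tested genes, 10.1% were higher and 10.7% lower at that p, and 27.8% were above and 27.6% below both controls, so that the 60S count at that p was near the share of all genes. As family sums, with pseudogene counts added, the medians were 0.07 for the 40S and 0.12 for the 60S, and both OE libraries were above both controls for 35.5% and 37.5%. Without OE 1 the 60S median of the genes alone was 0.03 and the 40S median 0.22, and without vector control 1 they were 0.10 and 0.28. The count of members at an unadjusted p under 0.05, 14 in all, moved both ways when 1 library was left out.

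**Figure D2:**
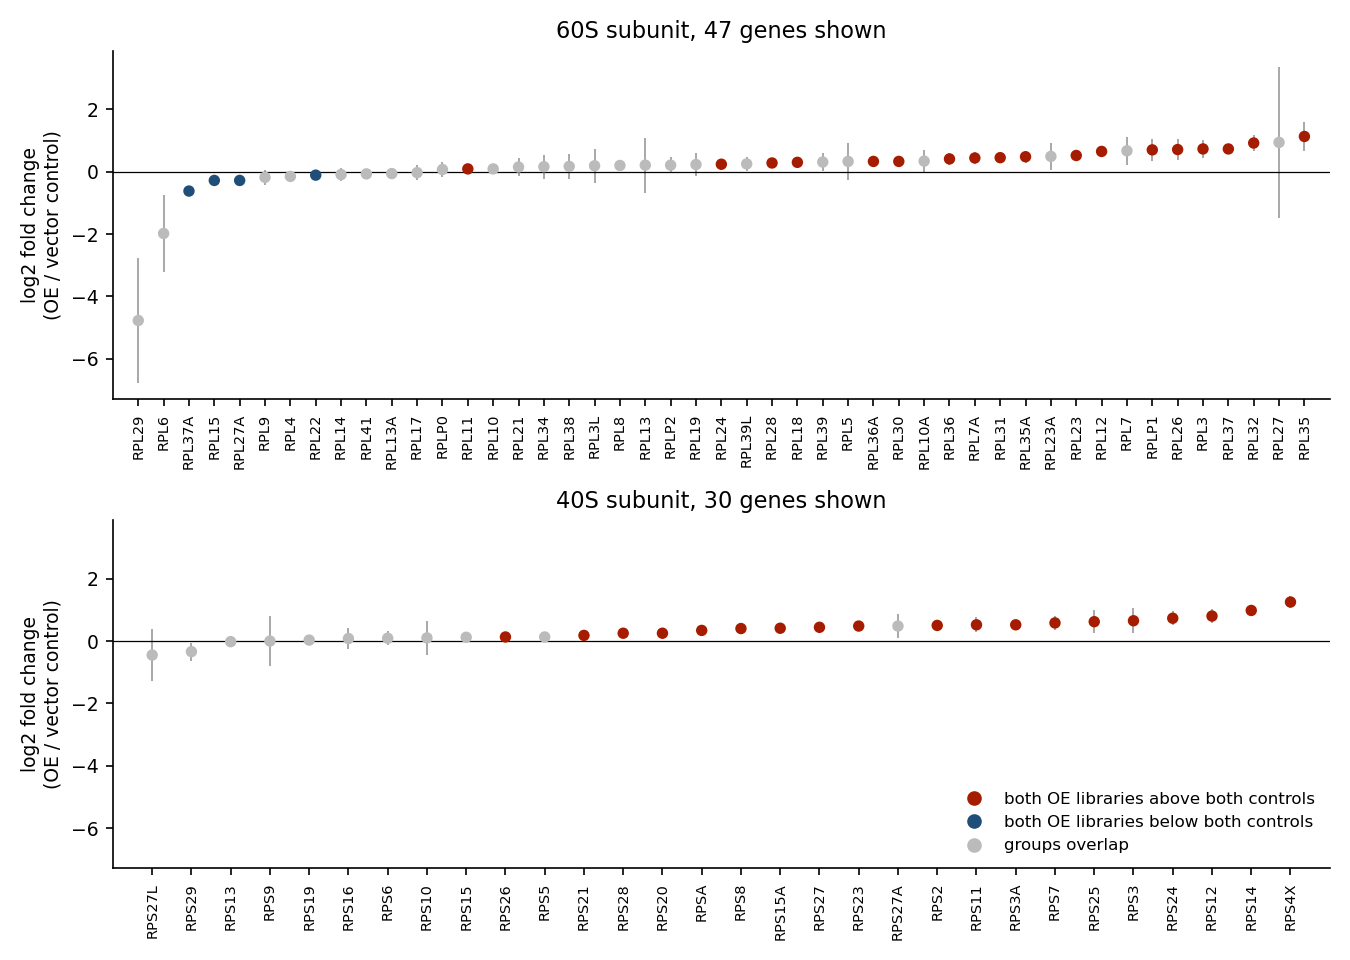
Log2 fold change of each tested ribosomal protein gene (OE over vector control, y axis, bars are the standard error of the edgeR fit, 2 libraries per condition), ordered within the 60S (top, 47 of 48 genes shown) and 40S subunit (bottom, 30 genes). Colour marks genes whose OE libraries both lie above (37) or both below (4) the controls, and *RPL29*, *RPL6* and *RPL27*, all in the top panel, carry the widest bars.

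*RPL37*, a small zinc-binding protein of the large subunit (chr5:40825364-40835324, minus strand, hg19), had the smallest p. The OE libraries held 3859 and 4010 counts and the controls 2053 and 2080, nearly all on its protein-coding transcript. In CPM it was at 88.3 ± 0.251 (SD, n = 2) in the vector control and 146 ± 10.7 (SD, n = 2) in OE. The groups did not overlap, and OE was higher by 0.73 on the log2 scale (standard error 0.0889; edgeR, adjusted p = 0.0751). Its pseudogenes had 4106 and 4589 counts in the control libraries and 6694 and 5871 in OE, and the family sum had a log2 fold change of 0.48. *RPL37A*, despite its name a different protein, was among the 2 lower genes, with 805 and 793 counts in the control libraries and 497 and 715 in OE (log2 fold change -0.62, standard error 0.149, adjusted p = 0.152 in edgeR). With its pseudogenes the value was -0.21 (unadjusted p = 0.0781 in edgeR). The counts of *RPL37A* itself lay on different transcripts in the conditions. The protein-coding transcript ENST00000491306.1 had 794 and 779 counts in the control libraries and 0 and 0 in OE, and the retained-intron transcript ENST00000478153.1 had 0 and 0 and then 487 and 706.

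*RPL15*, a core protein of the large subunit and the gene with the highest level per kilobase, was the other lower gene. It had 12716 and 12990 counts in the control libraries and 11790 and 12639 in OE, or 549 ± 4.77 and 453 ± 23.3 CPM (SD, n = 2 each). Although the counts of the groups lay close together, both OE libraries were lower in CPM. The gene and its family sum both had a log2 fold change of -0.28 (gene alone, standard error 0.0594; edgeR, adjusted p = 0.131). *RPL12*, which together with the stalk forms the site where elongation factors bind, had 601 and 489 counts in the control libraries and 927 and 1044 in OE (log2 fold change 0.65, standard error 0.146, adjusted p = 0.141 in edgeR). All of its counts were on a transcript annotated without a coding sequence. With its pseudogenes, *RPL12* had a log2 fold change of 0.22, and the gene held 4.1% of that family. The other stalk proteins *RPLP0*, *RPLP1* and *RPLP2* had log2 fold changes of 0.07, 0.70 and 0.21, and their unadjusted p was above 0.05.

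The remaining 60S genes at an unadjusted p under 0.05 were *RPL32*, *RPL23* and *RPL28*. *RPL32* had 376 and 321 counts in the control libraries and 570 and 973 in OE, a log2 fold change of 0.92, beside 0.20 for its family. *RPL23*, which with *RPL5* and *RPL11* can bind MDM2, had 164 and 152 against 266 and 255 counts and a log2 fold change of 0.52. *RPL28* had 1255 and 1311 counts in the control libraries and 1592 and 2012 in OE, with a log2 fold change of 0.28 both alone and as a family, of which the gene held 98.3%. In all 3 genes both OE libraries lay above both controls. *RPL5* and *RPL11*, which carry the 5S rRNA into the large subunit, had log2 fold changes of 0.33 (standard error 0.581) and 0.09 (standard error 0.126). *RPL3*, close to the peptidyl transferase centre, had 576 and 394 counts against 1017 and 818 and a log2 fold change of 0.73 (adjusted p = 0.283 in edgeR), and its family had -0.12.

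Among the small subunit genes, *RPS4X* had the largest value. It had 272 and 313 counts in the control libraries and 635 and 993 in OE, or 12.5 ± 1.16 and 29.8 ± 6.38 CPM (SD, n = 2 each). The groups did not overlap, and OE was higher by 1.25 on the log2 scale (standard error 0.204; edgeR, adjusted p = 0.098). In the first 3 libraries the counts lay on the protein-coding transcript (272, 313 and 635), and in OE 2 this transcript had 1 count, with 918 on ENST00000486733.1, annotated without a coding sequence. *RPS23*, a decoding-site protein, had 1717 and 1769 counts in the control libraries and 2594 and 3007 in OE, higher in OE by 0.48 on the log2 scale (standard error 0.0761; edgeR, adjusted p = 0.0954). Its replicates were close, at 74.5 ± 1.1 and 104 ± 0.411 CPM (SD, n = 2 each). The *RPS23* family sum had a log2 fold change of 0.24. *RPS14*, on the platform of the subunit, had 559 and 419 counts against 1029 and 1196. OE was higher by 0.98 on the log2 scale (standard error 0.182; edgeR, adjusted p = 0.113), and for the family sum the value was -0.01. *RPS2*, at the mRNA entry, had a log2 fold change of 0.50 alone and -0.01 as a family, of which the gene held 2.06%. The other 3, *RPS3A*, *RPS12* and *RPS24*, had log2 fold changes of 0.52, 0.80 and 0.73, with both OE libraries above both controls in each. Counted with their pseudogenes as families, they had 0.17, 0.65 and 0.17, and the *RPS24* family had an unadjusted p of 0.0939 in edgeR.

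**Figure D3:**
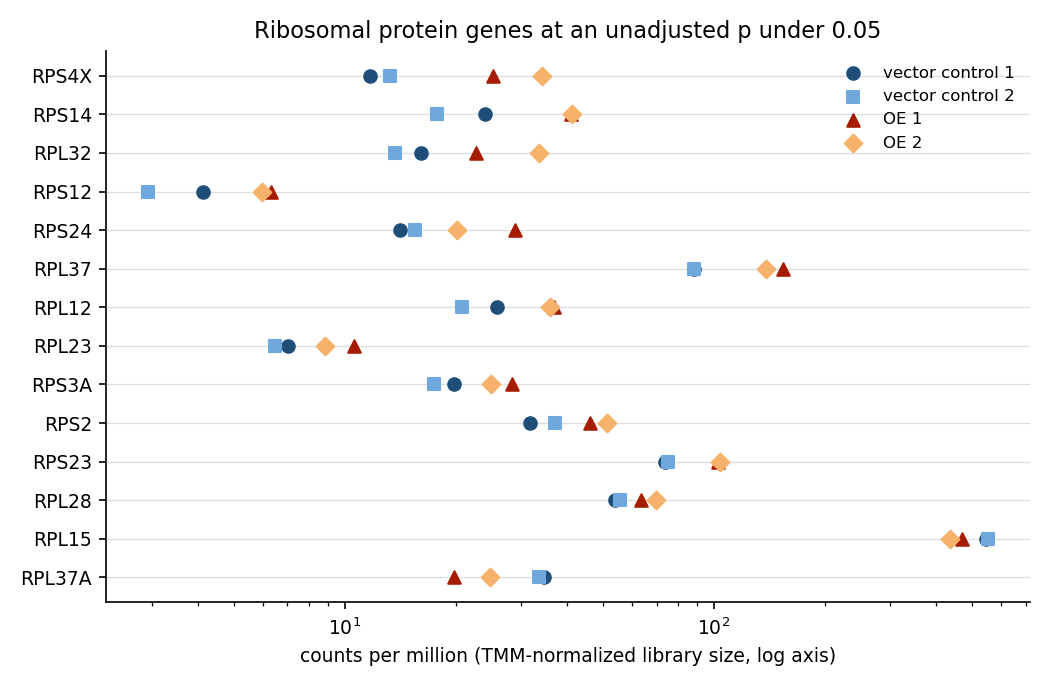
CPM (x axis, log scale, with library sizes normalized by TMM) in each of the 4 libraries for the 14 ribosomal protein genes at an unadjusted p under 0.05 in edgeR, ordered by log2 fold change. The OE points lie right of the control points in 12 genes and left of them in *RPL15* and *RPL37A*.

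The differences between conditions were smaller when a gene and its pseudogenes were counted together. The median log2 fold change of the family sums was 0.09 over 79 families, with 0.12 for the 60S and 0.07 for the 40S families. Of the 78 genes, 60 had a smaller absolute log2 fold change as a family and 19 had the opposite sign. At an unadjusted p under 0.05, 13 families were higher and 4 lower, beside 10.2% and 10.7% of all genes in that fit. Both OE libraries were above both controls for 29 families and below for 11, beside 28% and 27.4% of all genes. The family fit had 9 genes below an unadjusted p of 0.05 in common with the genes alone, of which *RPL12*, *RPL28*, *RPL32*, *RPL37*, *RPS12*, *RPS23*, *RPS3A* and *RPS4X* were higher and *RPL15* lower in both. The smallest adjusted p of a family was 0.0786 in edgeR, for *RPL4*, whose family was lower (log2 fold change -0.31). *RPL4*, which lines the exit tunnel, had 489 and 585 counts in the control libraries and 576 and 536 in OE, and *RPL4P4* had 36388 and 38183 against 31616 and 37638. The family *RPL26* (log2 fold change 0.27) and the family *RPL5* (0.24) were higher, with both OE libraries above both controls. DESeq2 called 0 families. In it 7 higher and 4 lower families passed the adjusted p but not the fold, and the share of all genes that did so is not given here.

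**Figure D4:**
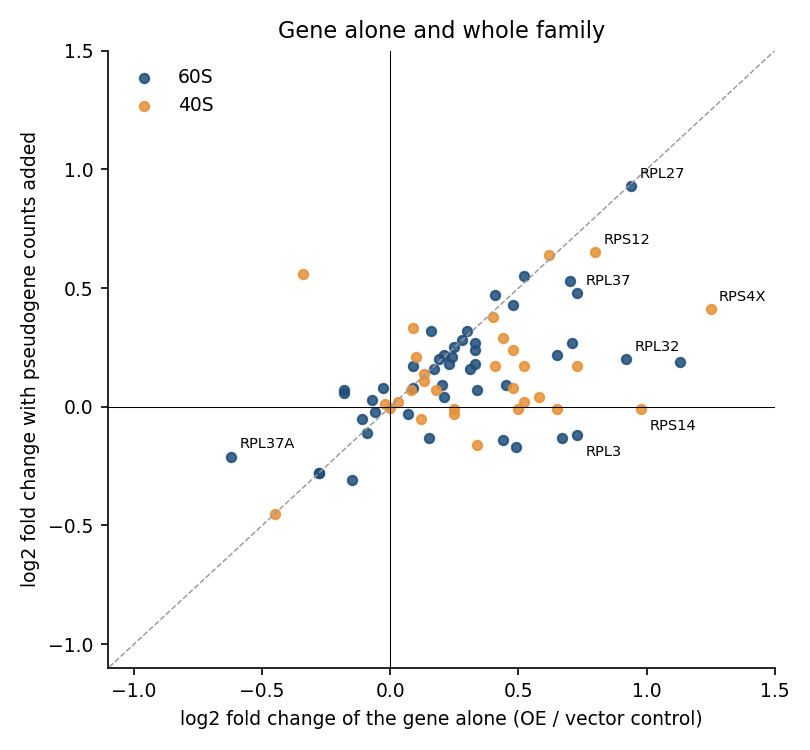
Log2 fold change (OE over vector control) of each ribosomal protein gene alone (x axis) and with the counts of its named pseudogenes added (y axis), coloured by subunit, with a dashed line where both are equal. Most points right of 0 lie below the line (*RPS14* 0.98 and -0.01, *RPS4X* 1.25 and 0.41). *RPL29* (-4.77 and -0.68) and *RPL6* (-1.98 and -0.14) lie outside the axes.

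Some members differed far more between replicates than between conditions. In 13 of the 78 (16.7%) the replicates of a condition differed over 2-fold, beside 15.9% of 19030 tested genes at or above 0.594 CPM, the lowest mean level of a tested member. *RPL29* had 197 and 10065 counts in the control libraries and 258 and 167 in OE, so 1 control library set its log2 fold change of -4.77 (standard error 2.01), which was -0.08 without that library. *RPL27* had 3 and 261 counts in the control libraries and 536 and 6 in OE, a difference between replicates in both conditions. *RPL6* had 66 and 786 counts against 114 and 135, and *RPL13* had 683 and 2464 against 2956 and 1095. In *RPL13* the protein-coding transcript ENST00000311528.5 had 0 and 1649 counts in the control libraries and 1747 and 0 in OE, while the retained-intron transcript ENST00000563749.1 had 683, 815, 1209 and 1095. *RPS27L*, a p53-induced paralog of *RPS27*, had 399 and 411 counts against 536 and 115. Without *RPL29*, the members held 0.212% and 0.235% of the counts in the control libraries and 0.266% and 0.237% in OE. Both OE libraries were then above both controls, but OE 2 only narrowly above vector control 2. *RPL29* was left out because of its outlying count in that control library.

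**Figure D5:**
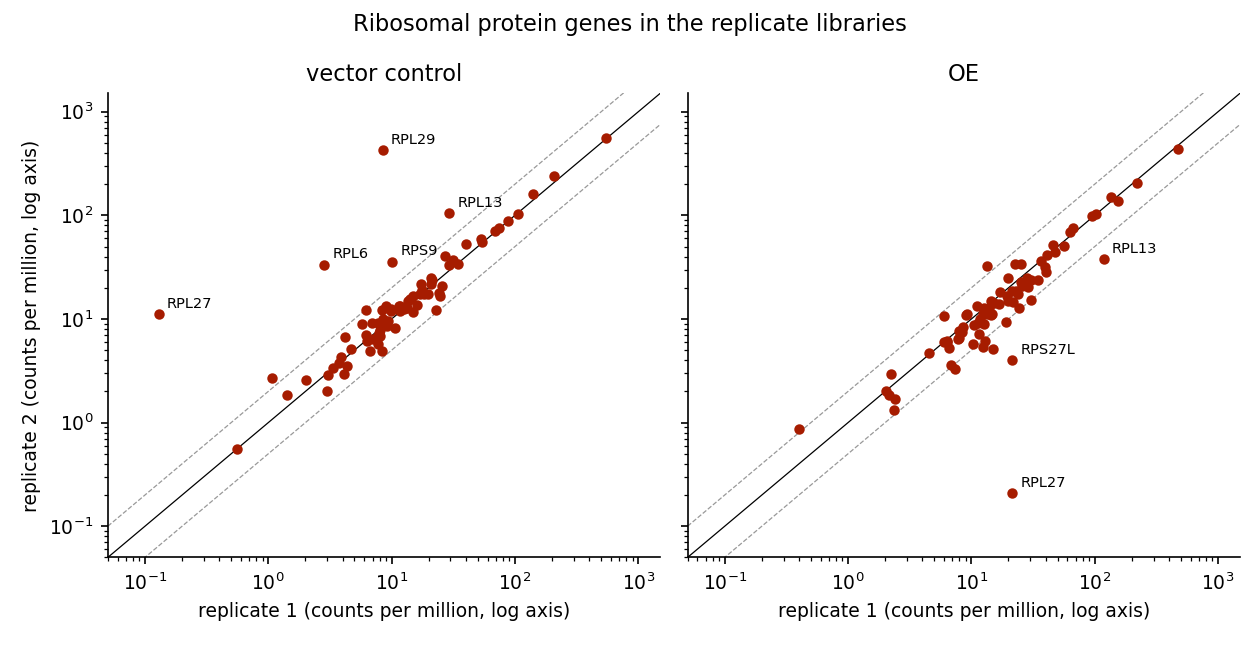
CPM of the 78 tested ribosomal protein genes in replicate 1 (x axis) and replicate 2 (y axis) of the vector control (left) and OE (right), on log axes, with the line of equal values and dashed lines at a 2-fold difference. *RPL29*, *RPL6*, *RPL27*, *RPL13* and *RPS9* are far from the line in the vector control, and *RPL27*, *RPL13* and *RPS27L* in OE, with *RPS9* labelled after its values were seen.

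The members' counts were also followed by transcript. Of their 769 listed transcripts, 229 had counts. The transcript with the most counts was not the same in all libraries for 26 (39.4%) of the 66 genes with several counted transcripts, beside 32% of the 11525 tested genes with several counted transcripts. It separated the conditions only in *RPL37A* and *RPL38*, and in the other 24 genes it differed between replicates of a condition. Retained-intron transcripts held 27.3% and 21.9% of the members' counts in the control libraries and 29% and 29.5% in OE. Without *RPL29* these shares were 27.4%, 25.8%, 29.1% and 29.6%. The 25 genes whose leading transcript retains an intron had a median log2 fold change of 0.30, the 42 led by a protein-coding transcript 0.18, and the other 11 had 0.40. How reads were assigned to the transcripts of a gene is not given in the sources used here.

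Paralogs inside the rule were compared with their main genes per kilobase, with the limit on transcript lengths given above. *RPL3L*, the heart and muscle paralog of *RPL3*, had 13 and 13 counts in the control libraries and 10 and 25 in OE. *RPL39L*, the paralog of *RPL39*, had 229 and 281 against 369 and 322 counts, and *RPL39* itself had 193 and 287 against 363 and 316. *RPL39* and *RPL39L* were at 29.4 and 16.3 CPM per kilobase, *RPL3* and *RPL3L* at 21.3 and 0.277, and *RPS27* and *RPS27L* at 25.3 and 2.45. For *RPS27L* the annotated length was 6110 bases, and in counts it was above *RPS27* in 3 of the 4 libraries (399, 411, 536 and 115 against 183, 171, 286 and 263). None of these pairs had a member at an unadjusted p under 0.05, nor did *RPL10* (log2 fold change 0.09, standard error 0.125). Outside the rule, 4 paralogs and 2 read-through genes were tested. The paralog *RPL36AL* was lower, with 1544 and 1493 counts in the control libraries and 1287 and 1394 in OE (log2 fold change -0.38, adjusted p = 0.15 in edgeR), and *RPL22L1* had 175 and 228 against 492 and 349 (log2 fold change 0.88, unadjusted p = 0.0524). *FAU* had 92 and 140 counts in the control libraries and 148 and 137 in OE (log2 fold change 0.10, standard error 0.285).

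By position in the ribosome, the tested members of each list had the following values, to be read beside the 10.1% of all tested genes that were higher at an unadjusted p under 0.05. The 9 exit tunnel proteins had a median log2 fold change of 0.31 with 0 at an unadjusted p under 0.05. The 9 proteins listed as joining the large subunit early had a median of 0.30, with 2 higher (*RPL28* and *RPL32*). The 14 proteins listed for the head, platform and decoding region of the small subunit had 0.25, with 4 higher (*RPS2*, *RPS12*, *RPS14* and *RPS23*). None of these 3 lists had a member lower at that threshold.

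The start of the mRNA was a sequence feature that most members shared. In the RefSeq promoter table (GRCh38.p14), 64 of the 83 genes were matched, and 46 of them (71.9%) had an annotated start at a C followed by at least 4 bases that are each C or T, on the transcribed strand, beside 5.14% of all 27305 genes and 6 of 69 (8.7%) mitochondrial ribosomal protein genes. The run was looked for only at the annotated start itself, so members counted without it may have a run of C and T close by. *RPL4*, for example, was counted without it, though a run begins a few bases after its annotated start. Starts with this run are shown for *RPS14*, *RPS23* and *RPS24*, and 1 without it for *RPS4X*. They were chosen since these genes had values above the controls in both OE libraries. Each line gives 10 bases before and 20 from the annotated start, and capitals mark the run of C and T. *RPS14* is at chr5:150449720-150449749 (minus strand), *RPS23* at chr5:82278335-82278364 (minus strand), *RPS24* at chr10:78033853-78033882 (plus strand) and *RPS4X* at chrX:72277229-72277258 (minus strand), all in GRCh38.p14.
RPS14: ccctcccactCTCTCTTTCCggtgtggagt
RPS23: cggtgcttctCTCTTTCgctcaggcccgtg
RPS24: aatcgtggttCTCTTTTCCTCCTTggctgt
RPS4X: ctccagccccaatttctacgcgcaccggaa

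The 45 tested members with such a start had a median log2 fold change of 0.24 alone and 0.16 as families. The 17 matched members without it at the annotated start had 0.13 and 0.07. Of 21 other tested genes with TOP mRNAs, 3 (14.3%) were higher and 3 lower at an unadjusted p under 0.05, near the 10.1% and 10.7% of all genes, with a median log2 fold change of 0.16. *PABPC1*, the poly(A)-binding protein, had 7467 and 8152 counts in the control libraries and 11244 and 12401 in OE (log2 fold change 0.39), while *EIF4B*, which helps the helicase eIF4A, had 7260 and 7288 against 6106 and 7456 (-0.31). The 9 noncoding snoRNA host RNAs of the same class had a median of 0.52, with 4 higher and 0 lower and both OE libraries above both controls in 8, beside 10.1% higher and 27.8% above both controls among all tested genes. Among them *SNHG8* had 447 and 432 counts in the control libraries and 804 and 865 in OE (log2 fold change 0.72, adjusted p = 0.0878 in edgeR), and *GAS5* had 496 and 561 against 834 and 928 (0.53, adjusted p = 0.129 in edgeR).

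Genes that make ribosomes were followed as lists, beside the 10.1% higher and 10.7% lower of all tested genes at an unadjusted p under 0.05. Of 32 tested assembly factors, 7 (21.9%) were higher and 1 lower, with a median log2 fold change of 0.15, and *NOP58*, a core protein of box C/D snoRNPs, had 285 and 293 counts in the control libraries and 452 and 569 in OE (0.61, adjusted p = 0.118 in edgeR). Of 12 RNA polymerase I genes, 1 was higher, *RRN3* (0.39). Of 13 genes of mTORC1 and TOP translation, 1 was higher, *EIF4EBP1*, with 1904 and 2078 against 3659 and 4744 counts (0.86, adjusted p = 0.0715 in edgeR), and the median was -0.02. The 75 tested mitochondrial ribosomal protein genes, which form a separate ribosome, had a median of -0.02, with 7 (9.33%) higher and 2 lower.

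The overexpressed *RP5-998N21.4* had 32 and 33 counts in the control libraries and 2407 and 2808 in OE. Markers of neuroblastoma cell states were also read, and none passed the study's threshold in edgeR, with a smallest adjusted p of 0.0449 among the adrenergic and 0.0615 among the mesenchymal markers. Of all tested genes, 27.8% were above and 27.6% below both controls. Of 10 adrenergic markers *TH* was at 0 in every library, and the other 9 were higher in both OE libraries than in both controls, with a median log2 fold change of 0.96 and a range of 0.37 to 1.39, and 6 of 8 mesenchymal markers were lower in both, with a median of -0.66 over the 8. Of the other mesenchymal markers, *VIM* was higher in both, with 8111 and 8217 counts against 31466 and 10869 (1.22), and *FN1* overlapped. Of 8 markers of other tissues, 6 had at most 4 counts in any library, and *GFAP* and *EPCAM* had at most 30. The part of cell state in the values of the ribosomal protein genes was not tested.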

How the data were processed

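The data were 2 vector control and 2 OE libraries of SK-N-SH cells. The values deposited by the authors are raw counts for each transcript, from reads passed through FastQC and Trimmomatic and then aligned by Bowtie2 (hg19). Per the labels, the submitters' processing notes name Bowtie2 2.0.4, Picard 2.21.6, StringTie 2.1.6 and DESeq2, without their roles. The paper names DESeq2 for its differential expression tests. The counting tool, its annotation release and its use of strand are not given in the sources used here. Bowtie2 does not split a read over an intron.

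Counts of the 196520 transcripts were summed per gene. TMM normalization was applied to the 20528 genes that passed filterByExpr, which were then tested with edgeR 4.0.16 in R 4.3.3 (quasi-likelihood, two-sided, Benjamini-Hochberg adjustment, no covariates). DESeq2 1.42.0, limma-voom (limma 3.58.1) and the other alternatives were run beside it. Pseudogenes were assigned to a parent by name, from the symbols of the table and the current symbols of the same identifiers. Adding the latter, and leaving out members with a replicate difference over 2-fold, were decided after the values were seen. Positions and transcript types were read from GENCODE lifted to GRCh37, start sequences from RefSeq (GRCh38.p14). Proteins were not analysed here. The edgeR steps were run on simulated counts. These varied less than the data and held larger changes than most members, so the run does not measure power here. Some genes covered by the rules are not reported here by name.

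The members, lists and thresholds were chosen with earlier results of these data known. Genes were named by a rule: members at an unadjusted p under 0.05, the 5 highest and 5 lowest log2 fold changes at a mean of at least 10 CPM, the 3 highest and lowest levels per kilobase, the 5 largest replicate differences, paralog pairs, untested members, and up to 4 genes per list with the smallest p. Other genes named, such as those with pseudogene values, were chosen after their values were seen. Replicate numbers did not pair the libraries, since their deviations from the group means did not correlate (r = -0.02 over all tested genes).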

Additional observations from a re-analysis of the deposited data

How the results depend on the processing

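The adjusted calls depended on the test. DESeq2 called 1800 genes and 8 members, edgeR with a minimum of 1 count 9 genes and 0 members, with only the highest transcript 1 gene and 0 members, and at an adjusted p under 0.05 122 genes and 0 members. The other alternatives called 0 genes. Members at an unadjusted p under 0.05 numbered 27 with DESeq2 and from 7 to 20 when 1 library was left out. The median log2 fold change of the members stayed above 0 in every alternative, from 0.13 to 0.37 without 1 library, and was 0.15 with pseudogenes named in the file added and 0.09 with current names. The 60S median ranged from 0.03 to 0.36 without 1 library, and the 40S median was 0.11 with pseudogenes named in the file and 0.07 with current names.

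The share of counts in the members, for vector control 1 and 2 and OE 1 and 2, was 0.227%, 0.296%, 0.285% and 0.253% with mitochondrial genes left out of the total, 2.05%, 2.2%, 2.22% and 2.14% with pseudogenes named in the file added, and 2.9%, 3.09%, 3.19% and 3.06% with current names.

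Of 463 recomputed log2 fold changes of 29 named members, 20 reversed, in 11 members. With pseudogenes added, by file names and by current names, *RPL3* had -0.12 and -0.12, *RPL41* 0.02 and 0.03, *RPS14* -0.01 and -0.01 and *RPS2* -0.02 and -0.01. *RPS27L* had 0.51 with only its highest transcript. Without 1 library, the range was -0.83 to 1.40 for *RPL13*, -0.16 to 0.04 for *RPL13A*, -4.73 to 6.33 for *RPL27*, -0.30 to 0.53 for *RPL38*, -0.48 to 0.63 for *RPL3L*, -0.17 to 0.02 for *RPL41*, -2.87 to 0.69 for *RPL6* and -2.12 to 0.30 for *RPS27L*. The cause was not tested, except that the pseudogene alternative adds counts. With the replicate number as a block, 0 members were called and the median was 0.26. At an unadjusted p under 0.05 there were 13, and the share of all genes in that fit is not given here. Deviations from the group means by replicate number had r = -0.02 over all genes and -0.37 over the members. These values cannot settle whether the libraries were paired.

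With 2 libraries per condition, spread was estimated from few degrees of freedom. Where leaving out a library left 1 sample, that sample was assumed to vary like the other condition. For the lowest tested member, *RPL3L*, at 10 to 25 counts, the standard error was 0.537.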

Other observations

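Genes outside the ribosome whose mRNAs have many processed pseudogenes were looked at after the values were seen. *EEF1A1*, the elongation factor that brings aminoacyl-tRNA to the ribosome, had 9190 and 1745 counts in the control libraries and 1414 and 1447 in OE, while the 49 genes named as its pseudogenes had 119739, 122122, 98599 and 119999 counts in the same order. *TPT1*, another TOP gene, had 2445 and 2832 counts against 3665 and 3083, and its 15 named pseudogenes had 12427, 13330, 14490 and 15993. As in the ribosomal protein families, most counts were on the pseudogenes in all 4 libraries.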
